A study of Aspergillus niger with 6 samples.

Results

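The genes examined were 6 transcription factors of carbon use in the filamentous fungus Aspergillus niger: xlnR (An15g05810), amyR (An04g06910), araR (An04g08600), inuR (An15g00300), creA (An02g03830) and pacC (An02g07890). They were chosen by identifier from 15431 listed genes, not by a rule on their measured values, though earlier results of these data were known. The reference table gives a symbol to 4 of them. The names araR and inuR come from the choice of genes itself. RNA was sequenced from mycelium of the laboratory strain N402 in 6 libraries from 3 culture conditions, with 2 shake flask cultures (A and B) in each. In the glucose condition spores had grown for 48 h at 28 °C on 1% glucose. In the willow condition 1.5 g (wet weight) of such mycelium had been washed and kept for 24 h on 1% ball-milled willow wood. In the glucose-added condition such a 24 h willow culture then received glucose and was sampled 5 h later. One strain was used throughout and every culture began on glucose. Willow cultures sampled 5 h later without glucose are not among the groups, so the effects of added glucose and of further time cannot be told apart. Likewise, carbon source, transfer and further culture time cannot be told apart between willow and glucose.

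Aspergillus niger lives on plant polymers and makes the enzymes for each of them under the control of a dedicated activator. XlnR switches on genes for xylan and cellulose degradation and for D-xylose use, AraR those for arabinan degradation and pentose catabolism, AmyR those for starch degradation and InuR those for inulin and sucrose use. All 4 are zinc cluster proteins that respond to small sugars from their substrates or to compounds derived from such sugars. CreA is the zinc finger repressor of carbon catabolite repression, which holds many of these genes down while glucose is present, and PacC is the zinc finger regulator of the response to ambient pH. The activity of several of these proteins is also set after transcription, which RNA counts do not show.

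Reads assigned to genes numbered from 434508 to 775667 per library and made up 1.46% to 3.15% of all reads, and 58.4% to 75.7% of reads had aligned to more than one place. The 6 regulators had between 5 and 130 counts in a library, so counting error alone was wide. Levels are given as CPM, each gene's count scaled to the TMM-adjusted library size, with 95% exact Poisson intervals that cover counting error only. All values are relative to the library, so more transcript per hypha and more hyphae that carry it cannot be told apart. All 6 genes were among the 6181 that passed the filter on low counts.

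**Figure D1:**
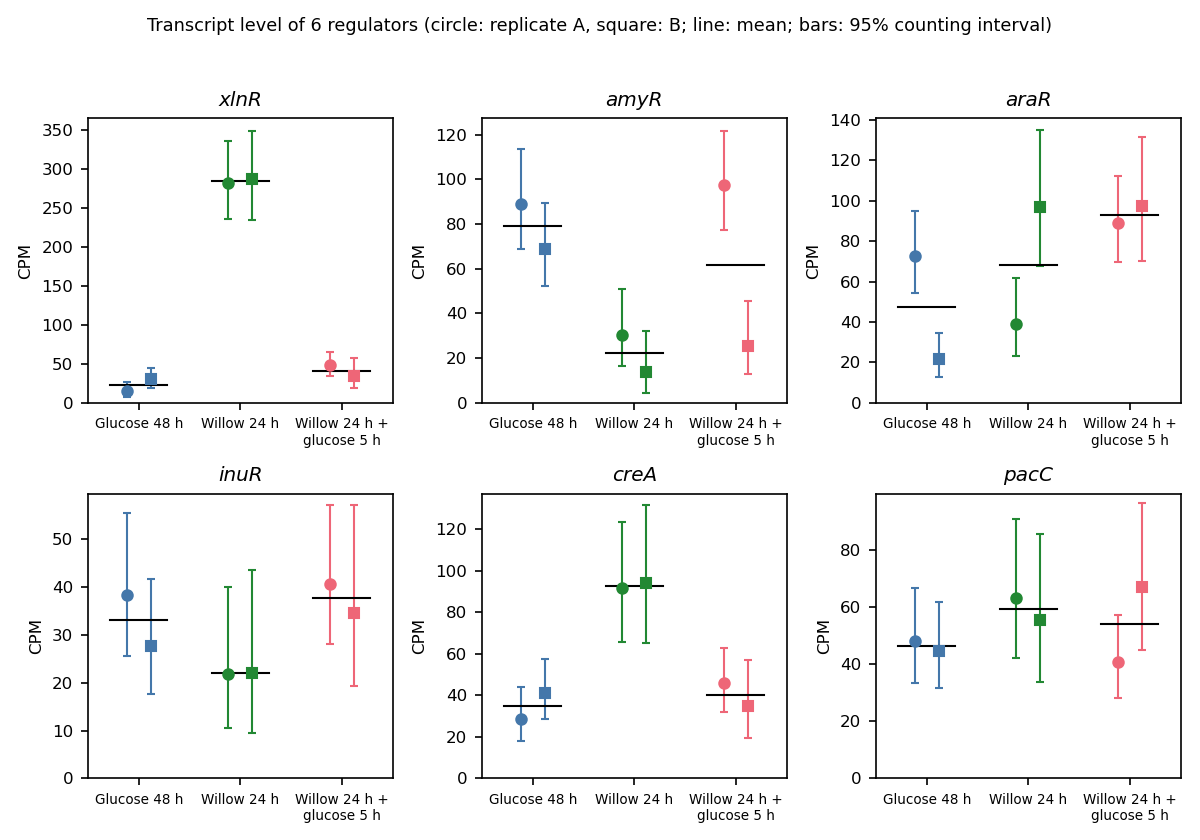
CPM (vertical axes, from 0) of each regulator in the 3 conditions, with circles for replicate A, squares for B, a line for the mean and bars for the 95% counting interval. Both willow libraries stand far above the other 4 for xlnR (283 and 288 CPM), and the replicates lie far apart for araR on glucose and willow and for amyR after glucose addition.

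The activator gene xlnR had the widest range of the 6. It had 15.1 CPM in glucose A (11 counts, interval 7.53 to 27.0) and 30.2 CPM in glucose B (25 counts, 19.6 to 44.6). On willow it had 283 CPM in A (130 counts, 236 to 336) and 288 CPM in B (104 counts, 235 to 349), and after glucose addition 48.2 CPM in A (39 counts) and 34.7 CPM in B (15 counts). Both willow libraries lay above the other 4, and the willow replicates differed only 1.02-fold, against 1.42-fold for the median tested gene on willow. Ranked per base of gene model, xlnR exceeded 28.6% and 42.5% of the genes with a count in glucose A and B, 87.5% and 86.8% in willow A and B, and 53.8% and 43.1% in the glucose-added A and B.

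Tested across all genes by edgeR (quasi-likelihood, p-values adjusted by Benjamini and Hochberg's method), xlnR rose 12.4-fold on willow against glucose (95% interval 6.91 to 22.1, log2 fold change 3.63 ± 0.41 SE, adjusted p = 1.3e-07). It was 6.72-fold lower after glucose addition than on willow (interval 3.85 to 11.7, log2 fold change -2.75 ± 0.39, edgeR adjusted p = 6.0e-06). Between the glucose-added and glucose conditions, which share the sugar but not the history, it did not pass the test, with 41.4 ± 9.53 against 22.7 ± 10.7 CPM (mean ± SD, n = 2; log2 fold change 0.88, interval -0.02 to 1.78, edgeR adjusted p = 0.174). The libraries of these conditions did not overlap, as was the case for 57.9% of tested genes. Under 16 alternative settings each of the first 2 calls held. On the deposited RPKM values plus 1 the estimates shrank to 1.06 and -0.94, on a scale that understates low genes.

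The repressor gene creA followed a similar course over a narrower range. It had 28.8 and 41.1 CPM in glucose A and B (21 and 34 counts), 91.4 and 94.1 CPM in willow A and B (42 and 34 counts), and 45.7 and 34.7 CPM in the glucose-added A and B (37 and 15 counts). Both willow libraries were higher than the other 4, while the glucose and glucose-added libraries overlapped. Libraries did not overlap for 64.6% of tested genes between willow and glucose and for 68.5% between the glucose-added and willow conditions. Transcripts of creA were 2.63-fold higher on willow than on glucose (interval 1.43 to 4.86, edgeR adjusted p = 0.0144) and 2.26-fold lower after glucose addition than on willow (interval 1.22 to 4.20, edgeR adjusted p = 0.0348). The glucose-added and glucose conditions differed by a log2 fold change of 0.22 (interval -0.69 to 1.13, edgeR adjusted p = 0.805). The rise was not called with total-count scaling (0.97, edgeR adjusted p = 0.0815) or without glucose A (1.13). On the deposited RPKM values plus 1 it was 0.08 (limma-trend adjusted p = 0.740). The RPKM values of creA ran from 0.157 (glucose-added B) to 0.507 (willow A), below the added 1, so that setting shrinks its differences. The fall was called under 5 of 15 alternatives, and leaving out any one of the 4 willow and glucose-added libraries ended the call (edgeR adjusted p from 0.0843 to 0.168).

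The starch regulator gene amyR moved the opposite way. It had 89.1 and 68.9 CPM in glucose A and B (65 and 57 counts), and 30.5 and 13.8 CPM in willow A and B (14 and 5 counts). After glucose addition it had 97.6 CPM in A (79 counts, interval 77.2 to 122) but 25.4 CPM in B (11 counts, interval 12.7 to 45.5). The glucose libraries lay above the willow libraries, but the glucose-added libraries overlapped with both other conditions. The ratio of glucose-added A to B was 3.84 with a 95% counting interval of 2.03 to 7.99, larger than the replicate difference of 95.6% of tested genes in that condition. Glucose-added A held 775667 gene counts and B 437314, at 3.15% and 1.59% of all reads. The part of this difference between the libraries in the amyR values was not tested.

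Transcripts of amyR fell 3.44-fold on willow against glucose (interval 1.54 to 7.71, log2 fold change -1.78 ± 0.56, edgeR adjusted p = 0.0171) and were 2.82-fold higher after glucose addition than on willow (interval 1.24 to 6.41, 1.50 ± 0.57, edgeR adjusted p = 0.0422). Without glucose-added A the rise was 0.20 (edgeR adjusted p = 0.867), and without glucose-added B it was 2.12 (adjusted p = 0.00452), so the call rested on glucose-added A. Without willow B it was 1.09 (edgeR adjusted p = 0.151), under DESeq2 its adjusted p was 0.115, and with only the willow and glucose-added libraries in the edgeR fit it was 0.0679. In all, the rise was not called under 7 of 16 alternatives. DESeq2 also missed the fall on willow (adjusted p = 0.0503), as did edgeR when willow B was left out (-1.38, adjusted p = 0.0654).

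The pentose regulator gene araR had 72.7 CPM in glucose A (53 counts, interval 54.4 to 95.1) and 21.8 CPM in glucose B (18 counts, 12.9 to 34.4). It had 39.2 CPM in willow A (18 counts) and 96.9 CPM in willow B (35 counts), and 88.9 and 97.1 CPM in the glucose-added A and B (72 and 42 counts). The glucose and willow libraries overlapped, as did the willow and glucose-added libraries, and the lowest value was in glucose B. The replicates were 3.34-fold apart on glucose (counting interval 1.93 to 6.06), more than 95.7% of tested genes, and 2.47-fold apart on willow, but only 1.09-fold apart after glucose addition.

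None of the 3 comparisons called araR. Its log2 fold change was 0.51 on willow against glucose (interval -0.54 to 1.56, edgeR adjusted p = 0.486), 0.47 for glucose-added against willow (interval -0.55 to 1.50, adjusted p = 0.480) and 0.99 for glucose-added against glucose (interval -0.01 to 1.98, adjusted p = 0.172). Leaving out glucose A alone turned the first and last into calls, at 1.57 (edgeR adjusted p = 0.0481) and 2.08 (adjusted p = 0.00820). Leaving out glucose B gave -0.16 for willow against glucose (edgeR adjusted p = 0.856), so the estimate depended on which glucose culture was kept.

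The inulin regulator gene inuR was the least abundant by count. It had 38.4 and 27.8 CPM in glucose A and B, 21.8 and 22.1 CPM in willow A and B (10 and 8 counts), and 40.8 and 34.7 CPM in the glucose-added A and B. Both willow libraries were the lowest, but the comparisons did not call it, with log2 fold changes of -0.58 on willow against glucose (interval -1.71 to 0.54, edgeR adjusted p = 0.456) and 0.79 for glucose-added against willow (interval -0.34 to 1.92, adjusted p = 0.273). The intervals leave room for a fall on willow of up to 3.27-fold.

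The pH regulator gene pacC varied least between conditions. It had 48.0 and 44.7 CPM in glucose A and B, 63.1 and 55.4 CPM in willow A and B, and 40.8 and 67.1 CPM in the glucose-added A and B, with 20 to 37 counts in each library. The glucose-added libraries overlapped with those of both other conditions. Its log2 fold changes were 0.36 on willow against glucose (interval -0.55 to 1.27, edgeR adjusted p = 0.588), -0.18 for glucose-added against willow (interval -1.10 to 0.75, adjusted p = 0.791) and 0.18 for glucose-added against glucose (interval -0.71 to 1.07, adjusted p = 0.837). A difference of 2-fold lies inside each of these intervals.

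**Figure D2:**
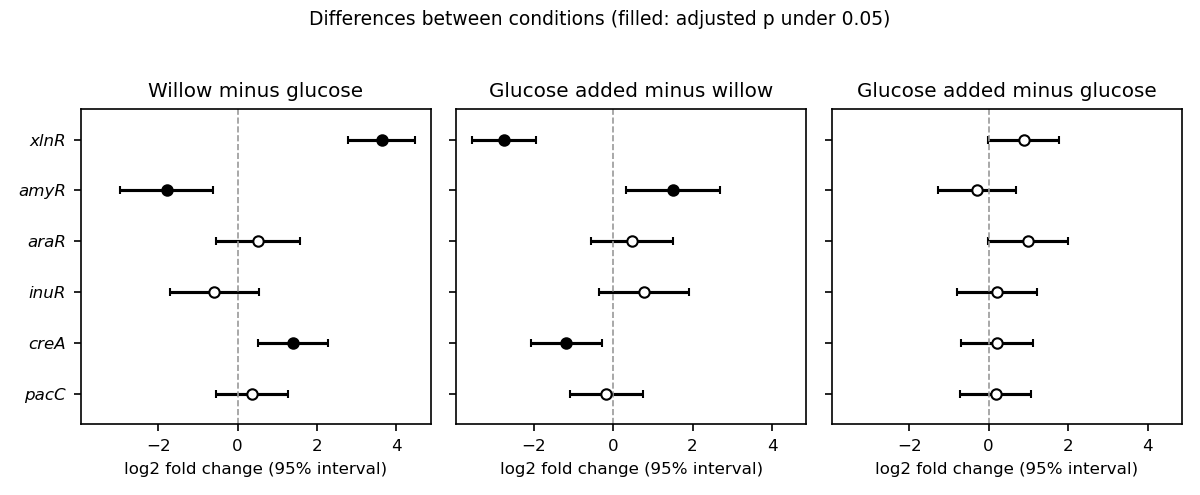
Log2 fold change (horizontal axes) of the 6 regulators in the 3 comparisons, with 95% intervals from edgeR's quasi-likelihood fit and filled points where the adjusted p was under 0.05. The points of xlnR and creA lie right of 0 for willow against glucose and left of 0 after glucose addition, amyR lies on the opposite sides, and no point is filled for glucose-added against glucose.

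Counted over the 6 genes, 3 were called between willow and glucose (2 higher and 1 lower on willow), where the test called 31.1% of all tested genes, 17.6% as higher and 13.5% as lower. Between the glucose-added and willow conditions 3 were called (1 higher and 2 lower), against 37.8% of tested genes (17.2% higher, 20.5% lower). Between the glucose-added and glucose conditions edgeR called 0 of 6, against 18.9% of tested genes (10.0% higher, 8.87% lower). There, 0 of the 6 had an unadjusted p under 0.05, and DESeq2 and limma-trend on the deposited RPKM values also called 0. A single test of any difference among the 3 conditions called xlnR (edgeR adjusted p = 4.8e-08), creA (adjusted p = 0.0164) and amyR (adjusted p = 0.0320), and 45.5% of tested genes. It did not call araR (edgeR adjusted p = 0.230), inuR (0.463) or pacC (0.785). The joint call of creA was lost under 6 of 14 alternatives, among them total-count scaling (edgeR adjusted p = 0.102) and leaving out glucose A (0.0546), willow A (0.0595) or willow B (0.0618). That of amyR was lost under 3 of 15, with DESeq2 (adjusted p = 0.0943), with at least 50 counts in 2 libraries (edgeR adjusted p = 0.0770) and without willow B (0.121). The joint test called araR without glucose A (edgeR adjusted p = 0.0105) and without willow B (0.0491). The pattern of xlnR and creA, called higher on willow and then called lower after glucose addition, was shared by 13.0% of tested genes, and the reverse pattern of amyR by 7.88%. These 2 comparisons share the willow libraries.

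Levels of different genes were compared as CPM per kilobase of gene model, with model lengths from 1736 bp (amyR) to 3456 bp (creA) recovered from the deposited values. On glucose, amyR was highest at 45.5 ± 8.24 CPM per kilobase and lay above pacC at 23.1 ± 1.15 without overlap. The levels of araR (18.9 ± 14.4) overlapped with those of pacC and of inuR (15.7 ± 3.55), and the lowest were creA (10.1 ± 2.52) and xlnR (8.62 ± 4.07), which overlapped with each other. On willow, xlnR was first at 109 ± 1.29 CPM per kilobase, above pacC (29.6 ± 2.75), araR (27.2 ± 16.3) and creA (26.8 ± 0.544). The araR libraries overlapped with those of pacC and of creA, while both pacC libraries lay above both creA libraries. The willow levels of amyR (12.8 ± 6.78) and inuR (10.4 ± 0.124) were lowest and overlapped. For inuR the ratio of willow A to B was 0.983 with a counting interval of 0.349 to 2.87. After glucose addition the order was araR (37.2 ± 2.32), amyR (35.4 ± 29.4), pacC (26.9 ± 9.28), inuR (17.9 ± 2.03), xlnR (15.8 ± 3.63) and creA (11.6 ± 2.25), where only pacC and inuR, as neighbours in that order, did not overlap. The place of creA depends on its gene model, which is the longest of the 6 and much longer than the creA gene of the reference annotation. Whether it holds untranslated regions or part of another gene is not stated, so levels, shares and ratios per base that involve creA rest on that length and on the reads counted to it. Of the summed level per kilobase of the 6 genes, xlnR made up 4.20% and 10.7% in glucose A and B, 51.5% and 49.4% in willow A and B, and 11.2% and 10.4% in the glucose-added A and B.

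The balance between regulators was also taken within each library, as a ratio of counts per base, which does not depend on how libraries are scaled. Relative to the repressor gene creA, the activator gene xlnR stood at 0.689 in glucose A (95% exact counting interval 0.300 to 1.49) and 0.967 in glucose B (0.553 to 1.67). It stood at 4.07 in willow A (2.85 to 5.91) and 4.02 in willow B (2.71 to 6.11), and at 1.39 and 1.32 in the glucose-added A and B. Both willow ratios lay above the other 4, and the willow A and B intervals lay above all others except that of glucose-added B (0.599 to 2.89), which overlapped with them. Relative to amyR, xlnR stood at 0.112 and 0.290 in glucose A and B, 6.13 and 13.7 in willow A and B, and 0.326 and 0.901 in the glucose-added A and B. The ratio of amyR to creA was 6.16 and 3.34 in glucose A and B, 0.664 and 0.293 in willow A and B, and 4.25 and 1.46 in the glucose-added A and B. For both of these pairs the glucose-added libraries were far apart, and the differences between conditions in these ratios were not tested.

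**Figure D3:**
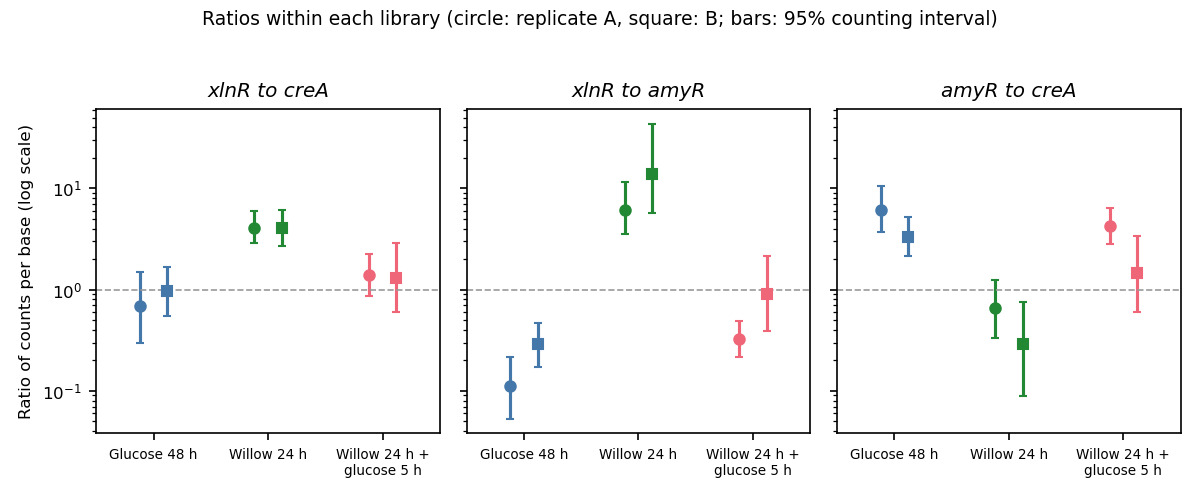
Ratio of counts per base (log axis) of xlnR to creA, xlnR to amyR and amyR to creA in each library, with circles for replicate A, squares for B, bars for the 95% counting interval and a dashed line at 1. Ratios of xlnR to both other genes are highest in the 2 willow libraries (4.07 and 4.02 against creA), and amyR to creA is lowest there.

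Lists of genes that the literature on Aspergillus niger places under 4 of the regulators were set beside them. The lists were chosen with earlier results of these data known, so their counts are descriptions and not an independent test. Of 15 genes listed under XlnR, 14 rose on willow and 0 fell, and 14 fell after glucose addition and 0 rose. Among all tested genes 17.6% were called higher on willow and 20.5% lower after glucose addition. For the directions with a count of 0, edgeR, DESeq2 and limma-trend all gave 0 and an unadjusted p under 0.05 was also found for 0. The median log2 fold changes of the list were 8.42 and -7.47, against -0.08 and 0.04 for all tested genes. The feruloyl esterase gene faeA had 0 counts in both glucose libraries, 408 and 282 in willow A and B, and 0 and 3 in the glucose-added A and B. The cellobiohydrolase gene cbhB had 21 and 12 counts on glucose, 11249 and 4180 in willow A and B, and 1071 and 324 in the glucose-added A and B. The summed level of the list went from 642 ± 238 CPM on glucose to 127223 ± 4147 CPM on willow, 198-fold, while xlnR itself went up 12.6-fold in mean CPM. After glucose addition the sum was 1884 ± 231 CPM, 67.5-fold below willow, while xlnR was 6.89-fold below. Against the glucose condition 3 list genes were higher and 0 lower (0 at an unadjusted p under 0.05 by edgeR, and 0 by DESeq2 and limma-trend). Of all tested genes, 10.0% were called higher and 8.87% lower. The higher list genes were cbhB (log2 fold change 5.58 ± 0.60, edgeR adjusted p = 2.8e-07), the beta-galactosidase gene lacA+ (2.77 ± 0.44, adjusted p = 6.5e-05) and the endoglucanase gene eglA (2.46 ± 0.52, adjusted p = 0.00126). The list median there was 0.95, or 0.93 without faeA, against 0.00 for all tested genes. On the deposited RPKM values plus 1, lacA+ and eglA were not called (limma-trend adjusted p = 0.221 and 0.312), and 5 list genes were called higher without glucose-added A, while 1 was called lower without glucose A.

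The gene araR was called in none of the 3 comparisons. Genes listed under AraR were called between willow and both other conditions, but only 1 between the glucose-added and glucose conditions. Of 6 tested genes, 6 rose on willow (17.6% of all tested genes) and 6 fell after glucose addition (20.5% of all tested genes), with 0 in the other direction by edgeR, DESeq2 and limma-trend and at an unadjusted p under 0.05. The medians were 4.05 and -3.68, against -0.08 and 0.04 for all tested genes. Among them, the arabinofuranosidase gene abfB rose by 5.47 ± 0.53 (edgeR adjusted p = 1.1e-08) and fell by 3.82 ± 0.47 on the log2 scale (adjusted p = 8.0e-07). The gene An12g00030 fell by 4.72 ± 0.43 on the log2 scale after glucose addition (edgeR adjusted p = 8.5e-09), and An08g01710 rose by 4.09 ± 0.53 on willow (adjusted p = 1.3e-06). The arabinanase gene abnA had 0 and 1 counts on glucose, 284 and 247 in willow A and B, and 11 and 3 in the glucose-added A and B. It was the 1 list gene called higher in the glucose-added than in the glucose condition (edgeR adjusted p = 0.00615), a call lost with DESeq2 (adjusted p = 0.0519) and without glucose-added A (edgeR adjusted p = 0.173). The share of all tested genes called higher in the glucose-added than in the glucose condition was 10.0%. The 7th gene, the arabinofuranosidase gene abfA, had 42 counts in all and was not tested. The summed level of the list was 256 ± 11.7, 4538 ± 1233 and 225 ± 77.3 CPM in the glucose, willow and glucose-added conditions, while araR had its highest mean, 93.0 ± 5.80 CPM, in that last condition.

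Of 6 matched genes listed under AmyR, 4 were tested. On willow the alpha-glucosidase gene aglU fell (log2 fold change -1.70 ± 0.44, edgeR adjusted p = 0.00389) and 0 rose (0 at an unadjusted p under 0.05 by edgeR and by limma-trend, and 1 by DESeq2, which called 0 after adjustment). Of the 4, 3 were called lower on the deposited RPKM values plus 1 or plus 0.1, and 2 with total-count scaling or without willow A. Among all tested genes 13.5% were called lower. After glucose addition aglU (2.68 ± 0.45, edgeR adjusted p = 6.0e-05) and the glucoamylase gene glaA (1.42 ± 0.52, adjusted p = 0.0353) were higher than on willow. Of all tested genes, 17.2% were called higher. The call of glaA was lost without willow A (edgeR adjusted p = 0.0924), willow B (0.0695) or glucose-added A (0.0991). Against the glucose condition An01g10930 was higher (1.19 ± 0.35, edgeR adjusted p = 0.0184), a call lost without glucose B (0.0786) or glucose-added A (0.248). Of all tested genes, 10.0% were called higher against the glucose condition. The median log2 fold changes of the list were -0.94, 0.96 and 0.80 in the 3 comparisons. In the glucose-added libraries, amyR was 97.6 CPM in A and 25.4 CPM in B, while the list sum was 84906 CPM in A and 66313 CPM in B, both above the glucose libraries at 43078 and 50750 CPM. Most of the list sum came from glaA, at 59386 ± 10135 CPM after glucose addition against 38724 ± 7112 CPM on glucose. The gene aglU had 14895 ± 2657 against 7570 ± 1651 CPM. Neither gene was called between these conditions, so the higher sum is not a called rise of the list. The mean of An04g06930 was lower, at 28.5 against 47.7 CPM, and was not called. The willow libraries had list sums of 25478 and 25436 CPM with amyR at 30.5 and 13.8 CPM. The alpha-amylase gene amyA had 0 counts in all 6 libraries. Such genes can have near-identical copies, and whether their reads were among those aligned to more than one place was not tested.

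Of 4 genes listed under InuR, inu1, which encodes an inulinase, was tested. It had 0 and 1 counts in glucose A and B, 3 and 5 in willow A and B, and 35 and 13 in the glucose-added A and B, and it was called higher in the glucose-added than in the glucose condition (edgeR adjusted p = 2.3e-04). The share of all tested genes called higher there was 10.0%. The endoinulinase gene inuA had 3 counts in all, the invertase gene suc1 had 9, and An15g04460 had 0. The level of inuR itself did not pass the test between these conditions, at 33.1 ± 7.49 and 37.7 ± 4.29 CPM (edgeR adjusted p = 0.838).

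**Figure D4:**
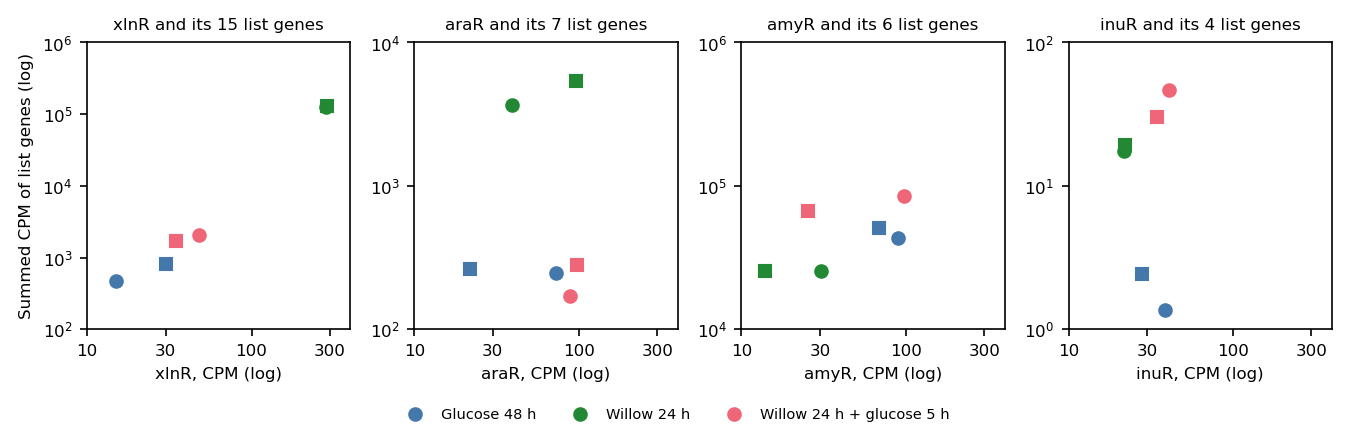
Summed CPM of the genes listed under each activator (vertical, log axis) against the CPM of the activator's own gene (horizontal, log axis) in each library, coloured by condition, with circles for replicate A and squares for B. For xlnR both values are highest in the willow libraries, while for araR the willow libraries have the highest list sums (3666 and 5410 CPM) at 39.2 and 96.9 CPM of araR.

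Other regulators were fixed as a list of 29 entries, also with earlier results of these data known. Only 9 genes were matched, of which 6 were tested. On willow 3 of them rose and 0 fell (edgeR and DESeq2 0, and 0 at an unadjusted p under 0.05 by edgeR). Limma-trend on RPKM plus 1 gave 0 lower on willow after adjustment and 1 at an unadjusted p under 0.05. After glucose addition 4 fell and 0 rose (edgeR and DESeq2 0, and 0 at an unadjusted p under 0.05 by edgeR). Among all tested genes 17.6% were called higher on willow and 20.5% lower after glucose addition. With at least 50 counts required in 2 libraries 1 was called in each comparison, and on the deposited RPKM values 2 were called lower after glucose addition. The largest changes were those of An04g00780, with log2 fold changes of 4.51 ± 0.83 (edgeR adjusted p = 1.4e-04) and -4.74 ± 0.90 (adjusted p = 2.3e-04), and of its neighbour An04g00790, with 3.20 ± 0.45 (adjusted p = 4.2e-06) and -2.80 ± 0.45 (adjusted p = 2.9e-05). The gene cpcA, which encodes the activator of amino acid biosynthesis genes, rose by 1.08 ± 0.33 (edgeR adjusted p = 0.0152) and fell by 1.16 ± 0.34 on the log2 scale (adjusted p = 0.00916), close in size to creA. For cpcA the rise was not called under total-count scaling (0.64, edgeR adjusted p = 0.131), without glucose B (0.89, adjusted p = 0.115) or without willow B (0.84, adjusted p = 0.125), and its fall without willow B (adjusted p = 0.0719) or glucose-added A (0.180). The protease regulator gene PrtT, at 0.20 (edgeR adjusted p = 0.687) and -0.41 (adjusted p = 0.344), and the acetate regulator gene facB, at -0.34 (adjusted p = 0.487) and 0.33 (adjusted p = 0.479), did not pass the test. The nitrogen regulator gene areA was among the 3720 listed genes with 0 counts in all libraries. Whether its reads were among those counted to no gene was not tested.

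The profiles of the 6 genes over the 6 libraries were compared as the root mean square difference of log2 CPM after centring each gene on its own mean. Among the regulators, inuR and pacC were nearest to each other at 0.49, followed by creA and pacC at 0.59, and xlnR and amyR were farthest apart at 2.32. Among 5492 other tested genes with a mean of at least 10 counts per library, the gene nearest to xlnR was the gene model TID_214667, at 0.13, with 34.0 ± 15.1, 453 ± 64.4 and 56.3 ± 7.69 CPM in the glucose, willow and glucose-added conditions. It was followed by An11g06430 (0.16) and An18g06580 (0.18). Nearest to creA were TID_215145 and An07g07970 (0.14 each) and An11g01610 (0.14). Nearest to amyR was An02g09220 at 0.23, which had the same wide replicate spread after glucose addition, 58.6 ± 53.4 CPM. Nearest to araR was An18g04290 (0.19), to inuR An07g10310 (0.07) and to pacC An03g04690 (0.09). Within 0.5 of the profile lay 43 genes for xlnR, 63 for amyR, 101 for araR, 622 for creA, 1515 for pacC and 1746 for inuR. The distances run over single libraries, so they hold the spread between replicates as well as differences between conditions. That spread was wide for araR on glucose and willow and for amyR after glucose addition, and its part in these numbers was not tested. With 2 libraries per condition these distances are descriptions and were not tested.

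**Figure D5:**
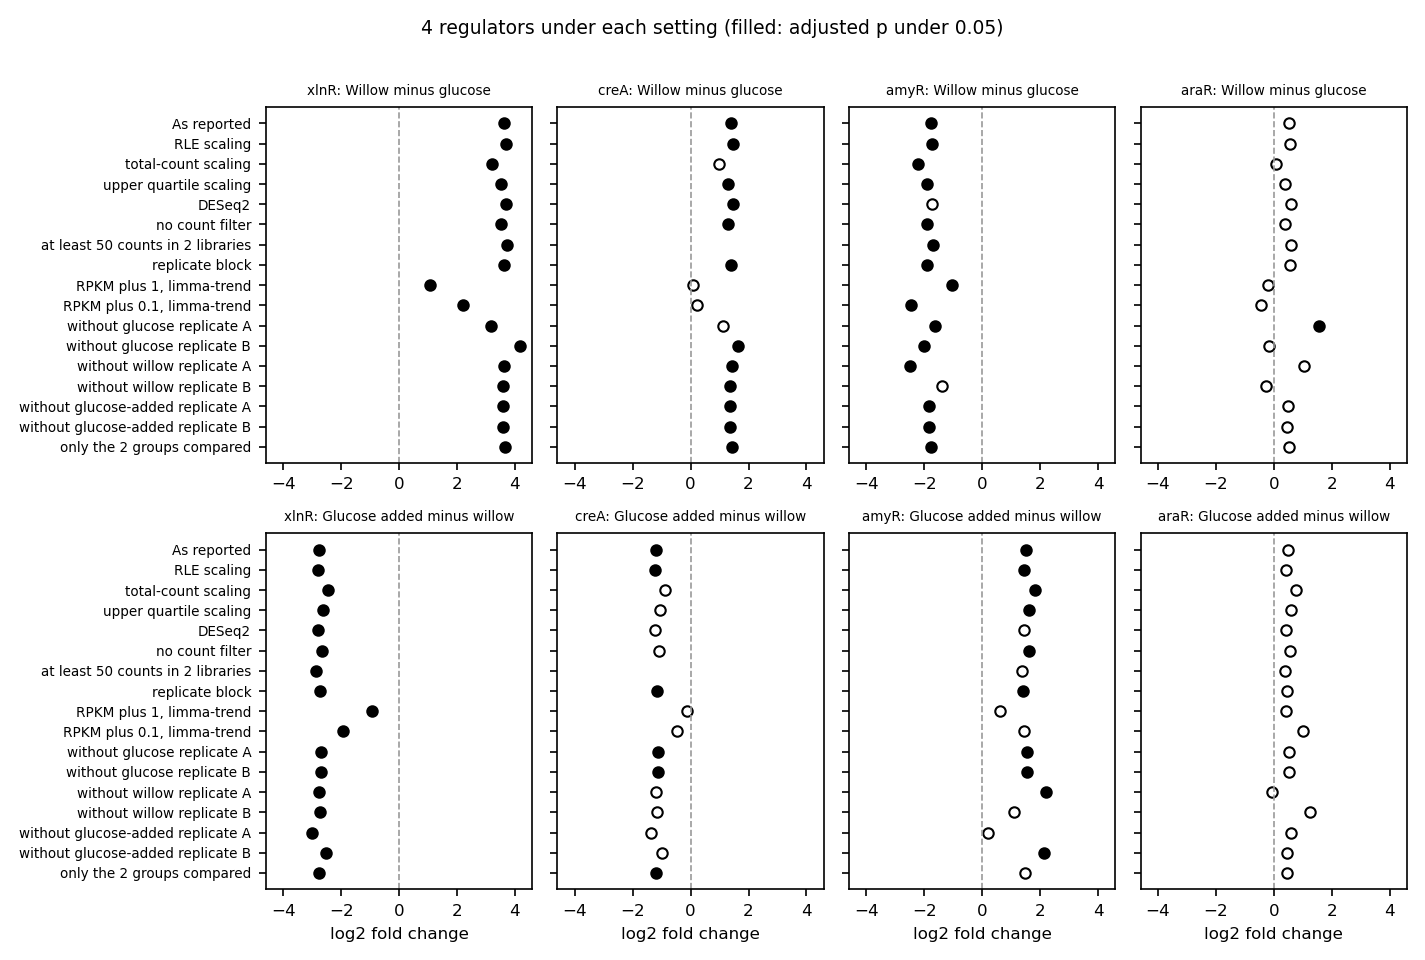
Log2 fold changes (horizontal axes) of xlnR, creA, amyR and araR for willow against glucose (upper row) and glucose-added against willow (lower row) under each setting named on the vertical axis, with filled points where the adjusted p was under 0.05. Points of xlnR are filled and on one side of 0 under every setting shown, while araR crosses 0 and amyR falls to 0.20 without glucose-added A.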

How the data were processed

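Counts per gene and RPKM values were deposited by the authors for each library, per the file headers, and HTSeq is named without a version in the submitters' processing notes. For the aligner and the build, nothing is given in the sources used here. A further 5 entries per library hold reads counted to no gene (96.9% to 98.5% of reads) and were left out. The deposited RPKM values were found to use the sum over all entries, since 100% of lengths then came out whole within 0.01 bp. Strand use in counting is not stated, so reads of overlapping and antisense genes cannot be told apart.

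Tests on counts used edgeR 4.0.16 under R 4.3.3 (TMM, filterByExpr with minimum count 10 and total 15, glmQLFit and glmQLFTest, two-sided, Benjamini-Hochberg over 6181 genes, threshold 0.05), with all 3 conditions in one fit and 3 residual degrees of freedom. Each gene's spread also drew on that of all tested genes, with 20.58 prior degrees of freedom, for a median total of 23.58. Intervals of fold changes are 95% intervals from that fit and rest on this larger total, as do its p-values. Alternatives used DESeq2 1.42.0 and limma 3.58.1 (log2 of RPKM plus 1 or 0.1). The procedure was tested on simulated data. Replicates differed beyond sampling noise (chi-square divided by its degrees of freedom 8.43 to 14.0), and duplicate cultures are stated in the series' design. If they are not separate cultures, p-values measure only the spread between libraries.

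The regulators were chosen by identifier, and both they and the lists with earlier results of these data known. List genes that carry no symbol in the reference table were placed by identifier. Named genes are the 6 regulators, their neighbours in the reference table (RefSeq, assembly ASM285v2), up to 4 called genes per list and comparison with the largest changes, and the 3 genes nearest in profile. Other genes were named after their values were seen. Lists of partners of CreA (5 symbols) and PacC (6 symbols) matched no gene of that table.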

Additional observations from a re-analysis of the deposited data

How the results depend on the processing

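The number of regulators called was 2 or 3 for willow against glucose under every alternative. For glucose-added against willow it was 1 instead of 3 with DESeq2, with at least 50 counts required in 2 libraries (which left 3 regulators tested), and on the deposited RPKM values plus 1 or plus 0.1, and it was 1 to 3 when single libraries were left out. The value of 1 came without willow B and without glucose-added A. For glucose-added against glucose it was 0 to 1 when libraries were left out, with 1 without glucose A. For any difference among the 3 conditions it was 1 with at least 50 counts in 2 libraries. That filter left 2743 genes tested, of which 1056, 1297 and 769 were called in the 3 comparisons and 1541 in the joint test. The main fit called 1925, 2336, 1167 and 2815 of 6181. For glucose-added against willow, DESeq2 and both RPKM settings also called fewer of all tested genes than the main fit. The calls of xlnR held under all 16 alternatives.

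Signs of values that were not called turned as follows, and the causes were not tested. For willow against glucose, araR was -0.21 and -0.44 on RPKM plus 1 and plus 0.1, -0.16 without glucose B and -0.27 to 1.57 over the left-out libraries (lowest without willow B), and pacC was -0.078 with total-count scaling and -0.28 and -0.66 on RPKM. For glucose-added against willow, araR was -0.070 to 1.24 over the left-out libraries (lowest without willow A), and pacC was 0.12 with total-count scaling, 0.12 and 0.33 on RPKM and -0.51 to 0.22 over the left-out libraries (highest without glucose-added A). For glucose-added against glucose, amyR was -1.62 to 0.30 over the left-out libraries (highest without glucose-added B), and inuR was -0.086 and -0.27 on RPKM and -0.015 to 0.45 over the left-out libraries (lowest without glucose B). There, creA was -0.051 and -0.22 on RPKM and -0.013 to 0.50 over the left-out libraries (below 0 without glucose A or glucose-added A), and pacC was -0.15 and -0.33 on RPKM and -0.19 to 0.53 over the left-out libraries (lowest without glucose-added B). The called rise of cpcA on willow became -0.045 and -0.056 on RPKM. For willow against glucose, the median over all tested genes shifted by -0.43 (log2) under total-count scaling and by -0.93 on RPKM plus 0.1, and higher genes made up 56.6%, 35.2% and 19.6% of calls with TMM, total-count scaling and RPKM plus 0.1. For glucose-added against willow these shares were 45.6%, 59.9% and 66.0%.

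In the fit with A and B as a replicate block, 3, 3 and 0 regulators were called in the 3 comparisons and 3 in the joint test, as without it. Over all tested genes, more were called with the block than without it in each comparison and in the joint test. The labels do not say that the letters mark shared batches, and the correlations of A minus B differences between conditions were -0.01, 0.12 and 0.17. Leaving out a library leaves 1 culture in a condition, which is then assumed to vary like the others.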

Other observations

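Genes next to the regulators in the reference table were compared by their levels and tests only. An04g08590 next to araR, An02g07900 next to pacC and An02g03840 next to creA were called in no comparison (edgeR adjusted p from 0.307 to 0.979). The regulators araR and pacC were not called either, whereas creA was. The gene after amyR is aglU, which fell on willow and rose after glucose addition as amyR did, whereas An04g06900 on the other side had 17.8 and 32.6 CPM on glucose, 28.3 and 33.2 CPM on willow and 17.3 and 25.4 CPM after glucose addition (edgeR adjusted p from 0.493 to 0.798). Both neighbours of inuR were called higher on willow, although inuR was not called. An15g00310 had 15.1 and 6.04 CPM on glucose, 50.1 and 74.7 CPM on willow and 34.6 and 25.4 CPM after glucose addition (log2 fold change for willow against glucose 2.55 ± 0.58, edgeR adjusted p = 0.00126; 0.163 by limma-trend on RPKM plus 1). An15g00290 had 43.9 and 33.8 CPM on glucose, 174 and 58.1 CPM on willow and 30.9 and 34.7 CPM after glucose addition, and its rise (1.60 ± 0.46, edgeR adjusted p = 0.00999) was 0.57 without willow A (adjusted p = 0.537). Without glucose B (edgeR adjusted p = 0.0615) or with total-count scaling (0.0521) it was not called either. Both genes next to xlnR, and An02g03820 next to creA, had at most 5 counts in any library.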
